A study of Mus musculus with 6 samples.

Results

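The high-affinity IgE receptor is described here through its 3 subunit genes, Fcer1a (alpha), Ms4a2 (beta) and Fcer1g (gamma), in TM3, a line derived from mouse Leydig cells of the testis. The members were taken by symbol from a count table of 54532 genes, in which each symbol matched 1 row. Ms4a2 was chosen by its measured counts, which differed between the groups in these same libraries, so its difference is given as a description without a test, and its 2 partner subunits were added by name. The libraries came from 3 samples of TM3 cells overexpressing A20, the ubiquitin-editing enzyme encoded by Tnfaip3, and from 3 samples of TM3 cells labelled as overexpression control with a WT genotype. The growth protocol, DMEM/F12 with fetal bovine serum, horse serum and antibiotics, was the same for all. The vector, the promoter driving A20, the clonality of the overexpressing cells and whether replicates were separate cultures are not given in the sources used here, so the p-values measure the spread between these libraries, which may be technical.

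The receptor is known from mast cells and basophils, where IgE bound to it triggers degranulation when antigen crosslinks it. The alpha chain binds IgE, the gamma chain is a signalling adaptor shared with other Fc receptors, and the beta chain, a membrane-spanning protein of the MS4A family, amplifies the signal. In rodents the beta chain is also needed for the receptor to reach the cell surface. Beta and gamma chains carry immunoreceptor tyrosine-based activation motifs (ITAMs), which the kinase Lyn phosphorylates and to which the kinase Syk binds. In mouse mast cells the transcription factor GATA-1 is known to act on the Ms4a2 promoter through GATA motifs.

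The 250 bases before the start that RefSeq gives each gene are shown because only Ms4a2 among the 3 genes was substantially expressed. A further reason was that GATA-1 is known to act on the Ms4a2 promoter in mouse mast cells. Sequences are from RefSeq on GRCm38.p6, 5′ to 3′ on the minus strand that holds each gene, and all 3 members matched. Capitals mark the letters GATAA or their reverse complement TTATC. The windows are chr19:11623720-11623969 for Ms4a2, chr1:173227230-173227479 for Fcer1a and chr1:171234350-171234599 for Fcer1g. The RefSeq start equals the gene end in the count table for Ms4a2, lies a few bases outside it for Fcer1a and a few bases inside it for Fcer1g.
Ms4a2: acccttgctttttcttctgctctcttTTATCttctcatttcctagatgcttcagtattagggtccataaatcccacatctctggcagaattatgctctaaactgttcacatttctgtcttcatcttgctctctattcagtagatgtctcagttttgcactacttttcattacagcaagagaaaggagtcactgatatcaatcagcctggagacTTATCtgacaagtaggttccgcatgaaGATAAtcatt
Fcer1a: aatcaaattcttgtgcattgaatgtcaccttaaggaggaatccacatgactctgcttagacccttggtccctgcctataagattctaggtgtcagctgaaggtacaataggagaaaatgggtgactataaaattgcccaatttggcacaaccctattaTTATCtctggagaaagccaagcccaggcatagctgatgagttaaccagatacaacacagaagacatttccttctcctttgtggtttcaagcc
Fcer1g: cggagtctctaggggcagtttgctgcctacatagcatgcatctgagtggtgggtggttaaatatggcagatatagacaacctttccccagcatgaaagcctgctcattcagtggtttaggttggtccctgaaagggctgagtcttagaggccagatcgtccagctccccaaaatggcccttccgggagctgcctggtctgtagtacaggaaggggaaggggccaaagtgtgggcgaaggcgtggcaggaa

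The Ms4a2 window held 3 matches to GATAA, searched on both strands, with their first bases 224, 37 and 10 bases before the start. Fcer1a had 1 match, 92 bases before its start, and Fcer1g had 0. Of 32851 promoter windows of the same length, 22.6% held at least 1 match and 0.712% held 3 or more. The letters GGAA, the core read by ETS factors such as PU.1, occurred 2 times in the Ms4a2 window, 2 times in that of Fcer1a and 5 times in that of Fcer1g, and 93.4% of all windows held them at least once. The E-box letters CANNTG occurred 0, 2 and 1 times in Ms4a2, Fcer1a and Fcer1g, and in 66.2% of all windows. These matches describe the letters and were not tested as binding sites.

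Sequencing depth was similar between libraries, at 13841287 to 16917979 counts. For a gene without a count the limit used in the text was therefore 0.177 to 0.217 CPM in a single library, the level of 3 counts. CPM is the count of a gene scaled to the total count of its library. The upper end of a 95% Poisson interval for 0 counts is computed differently and lies somewhat higher, at 0.218 to 0.267 CPM. Such limits, and the Poisson intervals below, cover counting error only. Tnfaip3 stood at 33.7 to 43.6 CPM in the A20-overexpressing libraries and at 11.9 to 30.9 CPM in the control libraries, without overlap (edgeR quasi-likelihood test with Benjamini-Hochberg adjustment, adjusted p = 0.331 with 6 libraries and 0.000256 without control replicate 1). Control replicate 1 stood apart in the defining markers of Leydig cells: the summed level of Cyp11a1, Star, Hsd3b1, Cyp17a1, Insl3, Lhcgr and Nr5a1 was 2039 CPM there, against 5.26 to 7.86 CPM in the A20-overexpressing libraries and 3.97 and 6.29 CPM in control replicates 2 and 3. The labelled cell type thus showed at most traces of its steroidogenic markers in 5 of the 6 libraries, with 3 or 4 of these 7 genes at 0 in each. Of the 11 listed Leydig markers 5 were tested, and edgeR and DESeq2 called 0 of them in either fit. Over all genes tested edgeR called 0.015% with 6 libraries and 4.6% without control replicate 1, and DESeq2 183 of 13350 and 888 of 13658. In edgeR, 1 of the 5 had an unadjusted p under 0.05 with 6 libraries, against 10% of all genes tested. Without control replicate 1 it was 0, against 21.6%. The most abundant of them per length, the adhesion molecule gene Vcam1, stood at 397 to 471 CPM with A20 overexpression and at 388 to 549 CPM in control. Tests across all genes were run with all 6 libraries and without control replicate 1.

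Ms4a2, the beta chain gene, was expressed in TM3 cells and higher in those overexpressing A20. The gene (ENSMUSG00000024680, GRCm38 chromosome 19, 11615523 to 11623719, minus strand) spans 8197 bases with 2813 bases of exon, and GENCODE M21 gives it 4 coding transcripts with 6 to 7 exons. It had 2808, 2731 and 4027 counts in A20-overexpressing replicates 1, 2 and 3, and 308, 872 and 618 counts in control replicates 1, 2 and 3. These counts correspond to 166, 174 and 267 CPM under A20 overexpression and 20.1, 60.8 and 44.6 CPM in control. Every A20-overexpressing library lay above every control library.

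The means of Ms4a2 were 202 CPM ± 55.9 (SD, n = 3) with A20 overexpression and 41.8 CPM ± 20.5 (SD, n = 3) in control, a ratio of 4.84. The fitted log2 fold change was 2.26 ± 0.42 (SE) with 6 libraries. Control replicate 1, the library that stood apart, was the lowest of all for Ms4a2. Without it the control mean was 52.7 CPM ± 11.4 (SD, n = 2) and the fitted log2 fold change 1.90 ± 0.22 (SE), which is 3.73-fold. As background, the groups did not overlap for 16.9% of the 13350 genes tested with 6 libraries, with 7.62% higher and 9.27% lower under A20 overexpression. Without control replicate 1 they did not overlap for 37.9% of 13658 genes, 20.7% higher and 17.2% lower.

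The order of Ms4a2 levels, from high to low, ran from A20-overexpressing replicate 3 over replicates 2 and 1 to control replicates 2, 3 and 1. A20-overexpressing replicates 2 and 1 could not be ordered by their counts, with 95% Poisson intervals of 168 to 181 CPM and 160 to 172 CPM. Replicate 3, at 259 to 275 CPM, lay above both. The control libraries were also separate from one another, since control replicate 3 spanned 41.2 to 48.3 CPM and control replicate 1 spanned 17.9 to 22.4 CPM. In a bulk library a larger number of cells with the transcript and more of it per cell cannot be told apart.

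**Figure D1:**
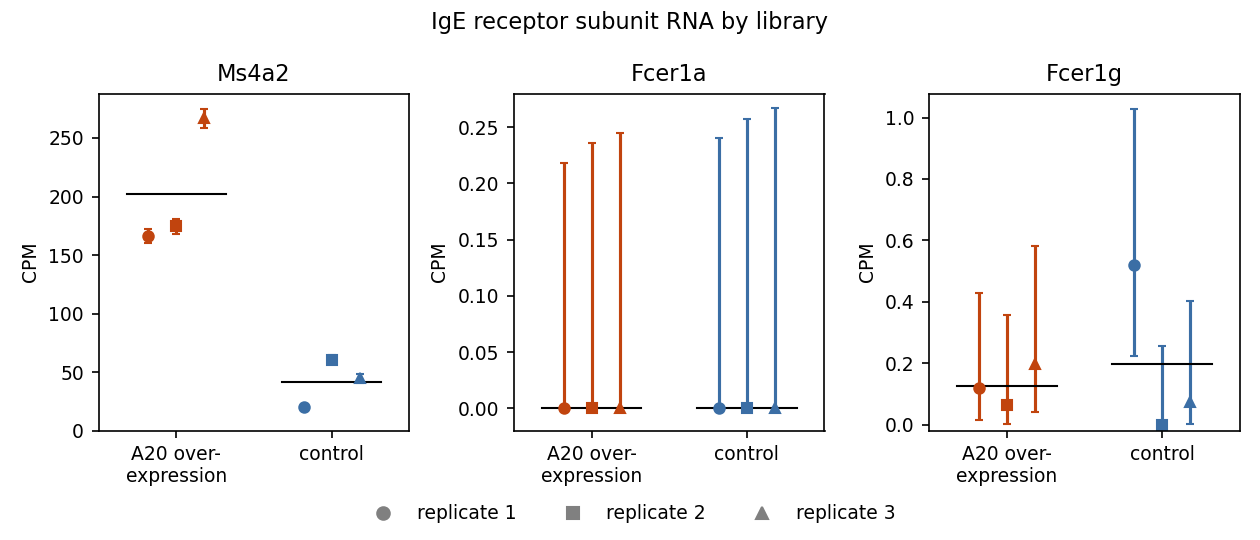
CPM of the 3 receptor subunit genes in each library (y axes differ), with A20 overexpression left and control right; bars on points are 95% Poisson intervals and black lines are group means. Ms4a2 lies at 166 to 267 CPM with A20 overexpression and at 20.1 to 60.8 CPM in control, whereas Fcer1a is at 0 in all 6 libraries and Fcer1g does not exceed 0.521 CPM.

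Compared per length, Ms4a2 ranked with well expressed genes of these cells. Its deposited FPKM was 58.7, 63.6 and 94.5 in A20-overexpressing replicates 1, 2 and 3, against 6.4, 23.1 and 15.8 in control replicates 1, 2 and 3. Among protein-coding genes with a count it ranked at position 709 of 13240, 704 of 13196 and 401 of 13252 with A20 overexpression. In control it ranked at position 6276 of 14939, 2276 of 12907 and 3165 of 13509. It therefore lay within the top 5.35% of detected protein-coding genes in every A20-overexpressing library, and between the top 17.6% and the top 42.0% in control.

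Fcer1a, the IgE-binding alpha chain gene (ENSMUSG00000005339, chromosome 1, 173221284 to 173227214), had 0 counts in each of the 6 libraries. Over the 91206814 counts of all libraries a total of 0 allows a level of up to 0.0329 CPM. Fcer1g, the gamma chain gene (ENSMUSG00000058715, chromosome 1, 171229572 to 171234365), had 2, 1 and 3 counts in A20-overexpressing replicates 1, 2 and 3, and 8, 0 and 1 counts in control replicates 1, 2 and 3. Its level was at most 0.199 CPM with A20 overexpression (95% Poisson interval 0.0410 to 0.581) and at most 0.521 CPM in control (0.225 to 1.03), in control replicate 1. The groups overlapped, and neither Fcer1a nor Fcer1g passed the filter on low counts, so that 1 of the 3 members entered the fit. The alpha chain was thus not detectable at this depth, and the gamma chain had 3 counts or fewer in 5 of 6 libraries.

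Other genes of the MS4A family had few counts or none. Of 19 rows whose symbol begins with Ms4a, 14 had no count in any library, among them Ms4a1, which encodes the B cell antigen CD20. Besides Ms4a2, counts were found for Ms4a3, Ms4a4d, Ms4a6d and Ms4a10. Ms4a4d had 0.236, 0.958 and 0.265 CPM in A20-overexpressing replicates 1, 2 and 3, against 15.5, 0.279 and 0.433 CPM in control replicates 1, 2 and 3, so that its one high value was that of control replicate 1. Ms4a10 had at most 2 counts in an A20-overexpressing library and at most 6 in a control library.

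Beside Ms4a2 on chromosome 19, Ms4a6d and Oosp1 had low counts that were higher in every A20-overexpressing library than in every control library. Within 250 kb the table lists 30 other genes, of which 11 had any count and 5 passed the filter. Ms4a6d and Oosp1 were thus 2 of the 5 tested, where 7.62% of all genes tested lay higher without overlap with 6 libraries and 20.7% without control replicate 1. With 6 libraries both passed the filter only through their A20-overexpressing libraries, so this share is a description only. Ms4a6d, on the same strand and 10674 bases beyond the downstream end of Ms4a2, had 31, 35 and 50 counts in the A20-overexpressing libraries and 6, 20 and 16 counts in control replicates 1, 2 and 3, without overlap in CPM. Oosp1, an oocyte secreted protein gene on the same strand 43741 bases upstream, had 34, 46 and 39 counts with A20 overexpression and 6, 10 and 10 counts in control, again without overlap. Ms4a3, the nearest tested gene upstream at 5777 bases and also on that strand, had 29, 15 and 25 counts with A20 overexpression and 5, 21 and 5 counts in control, and here the groups overlapped.

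None of these 5 neighbours passed edgeR's test in either fit, where 0.015% of 13350 genes passed with 6 libraries (0.00749% higher and 0.00749% lower) and 4.6% of 13658 without control replicate 1 (1.92% higher and 2.68% lower). The log2 fold change of Oosp1 was 2.06 ± 0.49 (SE, edgeR adjusted p = 0.269) with 6 libraries and 1.78 ± 0.52 (SE, edgeR adjusted p = 0.0578) without control replicate 1. Without control replicate 1, Oosp1 did pass with DESeq2 (adjusted p = 0.0454), with edgeR without a filter on low counts (adjusted p = 0.0328) and with limma on log2(FPKM + 1) and log2(FPKM + 0.1) (limma adjusted p = 0.0367 and 0.0368), and over all alternatives run there its adjusted p lay between 0.0328 and 0.172. DESeq2 called no other of the 5 there and 0 of the 5 with 6 libraries, against 888 of 13658 and 183 of 13350 genes tested. For Ms4a6d the log2 fold change was 1.32 ± 0.58 (SE, edgeR adjusted p = 0.497) and 0.90 ± 0.48 (SE, edgeR adjusted p = 0.289), and for Ms4a3 it was 0.99 ± 0.69 (SE, edgeR adjusted p = 0.664) and 0.60 ± 0.63 (SE, edgeR adjusted p = 0.631). An unadjusted p under 0.05 was found for 1 of the 5 in each fit, against 10% of all genes tested with 6 libraries and 21.6% without control replicate 1. Their median log2 fold change, that of Ms4a3, was 0.99 with 6 libraries and 0.60 without control replicate 1, beside -0.03 and -0.003 over all genes tested. The filter keeps a gene with enough counts in as many libraries as the smaller group holds. Ms4a3, with 5, 21 and 5 counts in control, was kept through its A20-overexpressing libraries, as were Ms4a6d and Oosp1 with 6 libraries. The median is therefore not independent of the filter and is a description only. No row of the table overlaps Ms4a2 in position.

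Farther upstream, the groups overlapped for Mrpl16 and Stx3. Mrpl16, a mitochondrial ribosomal protein gene 146696 bases away on the other strand, averaged 39.5 CPM ± 1.90 with A20 overexpression and 41.7 CPM ± 3.10 in control (SD, n = 3 each; log2 fold change -0.06 ± 0.17 SE, edgeR adjusted p = 0.928 with 6 libraries, and -0.17 ± 0.15 SE, edgeR adjusted p = 0.547 without control replicate 1). Stx3, a syntaxin gene 151399 bases away, averaged 68.0 CPM ± 8.64 with A20 overexpression and 66.8 CPM ± 31.9 in control (SD, n = 3 each; log2 fold change 0.02 ± 0.36 SE, edgeR adjusted p = 0.990 with 6 libraries, and -0.33 ± 0.18 SE, edgeR adjusted p = 0.305 without control replicate 1).

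**Figure D2:**
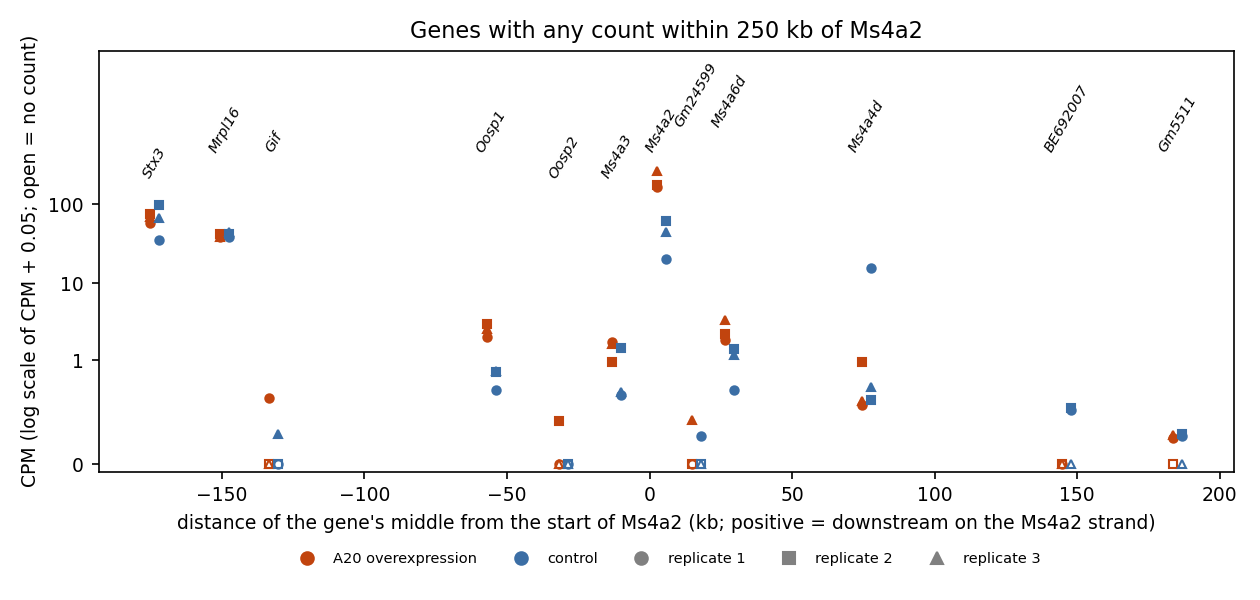
CPM in each library (log axis of CPM + 0.05, open symbols for no count) of Ms4a2 and the 11 other genes with any count within 250 kb, placed by the distance of the gene's middle from the start of Ms4a2; A20 overexpression is drawn left of control. Ms4a2 spans 20.1 to 267 CPM, and Ms4a6d, at up to 3.31 CPM, and Oosp1 show the same separation of the groups.

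The alpha and gamma chain genes lay among different neighbours. Around Fcer1a, 13 of 14 listed neighbours within 250 kb also had no count, and the exception was the DNA sensor gene Aim2, at 36.6 to 41.4 CPM with A20 overexpression and 26.9 to 52.6 CPM in control. Around Fcer1g, 28 of 35 neighbours had counts. The most abundant neighbour per length was F11r, a junctional adhesion molecule gene, with a mean of 114 FPKM with A20 overexpression and 102 FPKM in control. Of the 1 and 18 neighbours tested, edgeR called 0 in each fit, against 0.015% and 4.6% of all genes tested, and DESeq2 called 0. An unadjusted p under 0.05 in edgeR was found for 0 and 1 of them in each fit. The share over all genes tested was 10% with 6 libraries and 21.6% without control replicate 1.

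Genes that pass on the signal of the receptor were mostly present, but Lyn and Syk, the kinases that act on its ITAMs in mast cells, had 0 counts in all 6 libraries, which allows up to 0.0329 CPM each. Of 44 listed genes, 6 had no count in any library: the kinase genes Lyn and Syk, the adaptor genes Lcp2 (SLP-76) and Grap2, the exchange factor gene Vav1 and the phospholipase gene Plcg2. Lat, the membrane adaptor of the pathway, had 1, 8 and 0 counts in the A20-overexpressing libraries and 1, 3 and 1 in control. Relatives of the missing genes were present: Fyn, a Src-family kinase gene, averaged 113 CPM ± 4.81 with A20 overexpression and 100 CPM ± 6.06 in control (SD, n = 3 each), and Plcg1 averaged 114 CPM ± 7.79 with A20 overexpression and 106 CPM ± 3.24 in control (SD, n = 3 each). The most abundant gene of the list per length was the kinase gene Map2k1, with a mean of 67.7 FPKM with A20 overexpression and 55.2 FPKM in control.

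Among these genes, 31 were tested and edgeR called 0 in either fit, as did DESeq2. Over all genes tested edgeR called 0.015% with 6 libraries and 4.6% without control replicate 1, and DESeq2 183 of 13350 and 888 of 13658. For the 31 signalling genes, a count of 0 is near the edgeR shares. An unadjusted p under 0.05 was found for 2 with 6 libraries, against 10% of all genes tested, and for 1 without control replicate 1, against 21.6%. The median log2 fold change was 0.11 with 6 libraries and 0.08 without control replicate 1, beside -0.03 and -0.003 over all genes tested. The groups did not overlap for 7 of the 31 (22.6%, against 16.9% of all genes tested). Fyn, Map2k1, Itpr2 and Orai1 were among the 5 that lay higher. Orai1, the pore of the store-operated calcium channel, stood at 12.6, 13.5 and 14.8 CPM with A20 overexpression and at 7.75, 7.25 and 10.9 CPM in control (log2 fold change 0.68 ± 0.26 SE, edgeR adjusted p = 0.462 with 6 libraries, and 0.56 ± 0.24 SE, edgeR adjusted p = 0.184 without control replicate 1). The 2 that lay lower were Tec, a kinase gene at 2.58 to 4.02 CPM with A20 overexpression and 4.67 to 6.25 CPM in control, and Vav3, at 0.530 to 1.18 CPM with A20 overexpression and 1.56 to 1.66 CPM in control.

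Of 18 listed inhibitors of the receptor, 16 had counts and 12 were tested. edgeR called 0 of these with 6 libraries, and Csk alone, higher, without control replicate 1, where 1.92% of all genes tested were called higher. DESeq2 also called 0 and 1, against 183 of 13350 and 888 of 13658 genes tested. The median log2 fold change of the 12 was 0.03 with 6 libraries and 0.04 without control replicate 1, beside -0.03 and -0.003 over all genes tested. In edgeR, 0 of the 12 had an unadjusted p under 0.05 with 6 libraries, against 10% of all genes tested. Without control replicate 1 it was 1, against 21.6%. Csk, the kinase that keeps Src-family kinases inactive, stood at 43.6, 38.4 and 52.5 CPM with A20 overexpression and 48.8, 20.1 and 32.2 CPM in control replicates 1, 2 and 3. Without control replicate 1 it rose 1.68-fold (log2 fold change 0.75 ± 0.19 SE, edgeR adjusted p = 0.0353). With all 6 libraries the groups overlapped (0.46 ± 0.26 SE, edgeR adjusted p = 0.585). Leaving out any A20-overexpressing library or control replicate 2 from the 5 also ended the call (edgeR adjusted p = 0.0794 to 0.197), as did scaling the 5 by library size alone (edgeR adjusted p = 0.0514) and limma on log2(FPKM + 1) and log2(FPKM + 0.1) (limma adjusted p = 0.103 and 0.108). The most abundant inhibitor per length was the adaptor gene Dok1, at 33.3 FPKM with A20 overexpression and 29.3 FPKM in control on average.

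**Figure D3:**
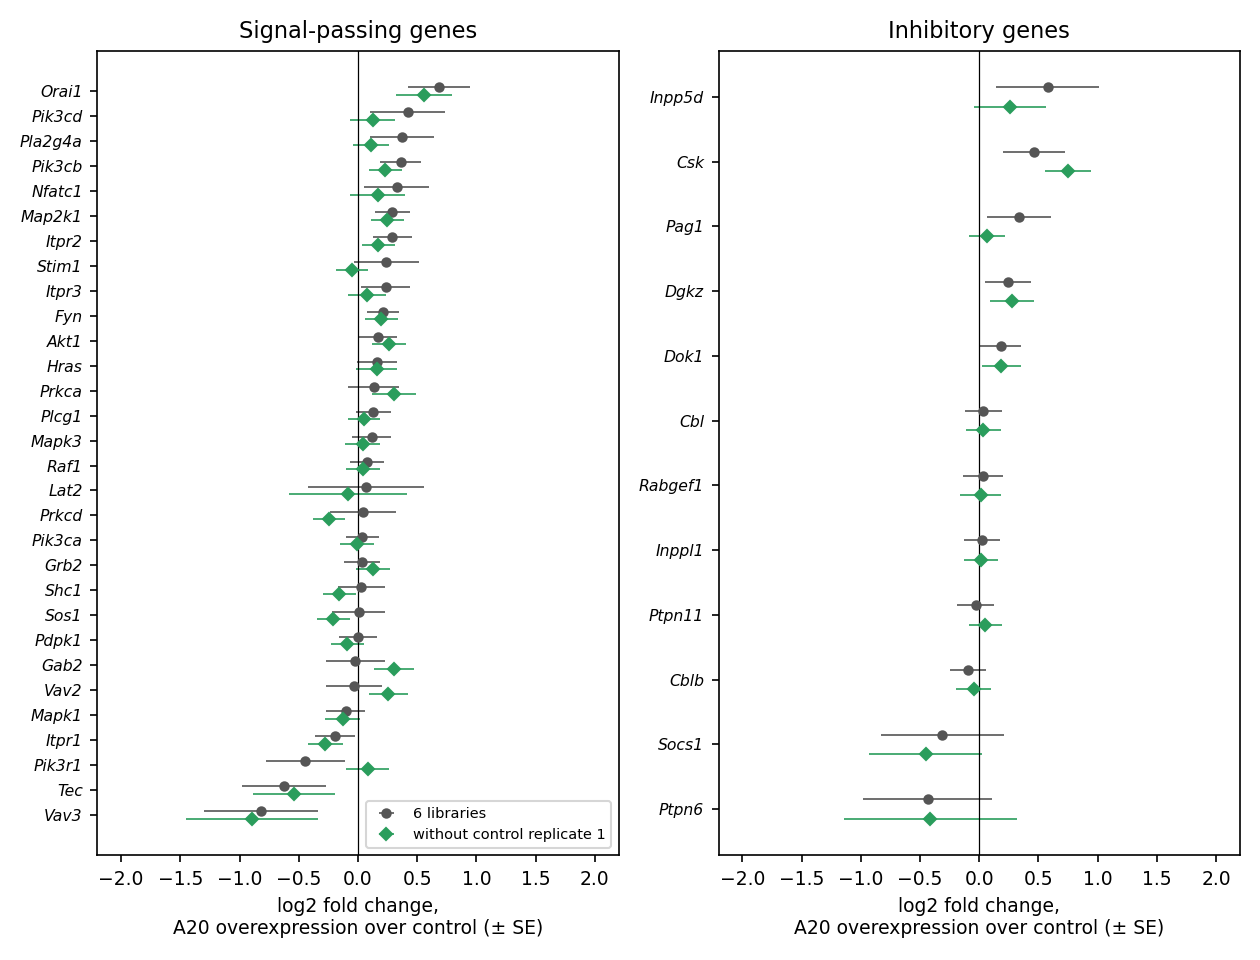
Fitted log2 fold change of A20 overexpression over control, with its standard error, for 30 of the 31 signal-passing genes and the 12 inhibitory genes tested, with 6 libraries (grey circles) and without control replicate 1 (green diamonds). Most genes lie near 0, and Csk lies at 0.75 without control replicate 1 and at 0.46 with it.

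Among other receptors for IgE and IgG, those of leukocytes had few counts or none. Of 16 listed genes 10 had counts and 4 were tested with 6 libraries. Fcgr1, which like Fcer1a needs the gamma chain, had no count, and Fcgr3 had 1 count in all. Fcgr4, which passed the filter in both fits, had more, with 18, 28 and 37 counts with A20 overexpression and 16, 29 and 9 counts in control. Fcer2a, the low-affinity IgE receptor CD23, had 11, 5 and 7 counts with A20 overexpression and 1, 16 and 18 counts in control. The most abundant gene of the list per length was Lgals3, which encodes the IgE-binding lectin galectin-3, and it averaged 329 CPM ± 93.0 with A20 overexpression and 295 CPM ± 56.9 in control (SD, n = 3 each; log2 fold change 0.17 ± 0.27 SE, edgeR adjusted p = 0.865 with 6 libraries, and -0.03 ± 0.19 SE, edgeR adjusted p = 0.952 without control replicate 1). The neonatal Fc receptor gene Fcgrt averaged 75.0 CPM ± 5.00 with A20 overexpression and 60.5 CPM ± 22.6 in control (SD, n = 3 each; log2 fold change 0.31 ± 0.31 SE, edgeR adjusted p = 0.769 with 6 libraries, and -0.0075 ± 0.14 SE, edgeR adjusted p = 0.985 without control replicate 1). edgeR and DESeq2 called 0 of this list in either fit. Over all genes tested edgeR called 0.015% with 6 libraries and 4.6% without control replicate 1. In edgeR, 0 of the 4 tested had an unadjusted p under 0.05 with 6 libraries, against 10% of all genes tested. Without control replicate 1 it was 1 of 5, against 21.6%, namely Fcer2a (log2 fold change -1.35 ± 0.63 SE, edgeR adjusted p = 0.226). Fcer2a was not tested with 6 libraries. It passed the filter here only through control replicates 2 and 3, where it is high, so its difference is a description only. The median log2 fold change of the listed genes tested was 0.24 with 6 libraries and -0.03 without control replicate 1, beside -0.03 and -0.003 over all genes tested. The heavy chain gene of IgE itself, Ighe, had no count. All 9 listed genes for adaptor chains of immune receptors, including Cd247, Cd79a and Tyrobp, had counts, but none was tested. Their summed level was 0.177 to 1.13 CPM with A20 overexpression and 0.139 to 0.977 CPM in control. Fcer1g had the highest mean FPKM of the 9, but on 15 counts in all, 8 of them in control replicate 1, so this order is uncertain.

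Of 24 listed mast cell and basophil markers, the granule proteases did not exceed 1.18 CPM in any library, whereas Gata2, Enpp3 and Il1rl1 were expressed in both groups. Of the 24, 11 had no count, including the protease genes Cpa3, Tpsb2, Cma1, Mcpt4 and Mcpt8 and the receptor gene Mrgprb2. A subset of 8, the proteases Cpa3, Tpsab1, Tpsb2, Cma1, Mcpt4 and Mcpt8 with Mrgprb2 and Hdc, was taken as defining. Of these 8, 6 were at 0 in all libraries, and the summed level of the 8 was 0.447 to 0.650 CPM with A20 overexpression and 30.1, 1.18 and 0.433 CPM in control replicates 1, 2 and 3. The high control value came from Hdc, which makes histamine, at 447 counts in control replicate 1 and at most 4 in any other library. Kit, the stem cell factor receptor gene, had 238 counts in control replicate 1 and 0 in the other 5 libraries, and Gata1 had 145 counts there and 0 to 3 elsewhere. The library with these counts was thus the one with the least Ms4a2, and the part of its other differences in the Ms4a2 result was not tested. Enpp3, a surface ectoenzyme gene, stood at 10.3 to 16.3 CPM with A20 overexpression and 7.04 to 14.1 CPM in control, and Il1rl1, the receptor gene for interleukin-33, at 2.94 to 4.79 CPM with A20 overexpression and 3.32 to 5.71 CPM in control, so that both overlapped between the groups. The summed level of all 24 markers was 31.7 to 39.1 CPM with A20 overexpression and 27.4 to 74.8 CPM in control. edgeR called 0 of the 4 tested in either fit, as did DESeq2, and edgeR called 0.015% and 4.6% of all genes tested. In edgeR, 1 of the 4 had an unadjusted p under 0.05 in each fit. The share over all genes tested was 10% with 6 libraries and 21.6% without control replicate 1. The median log2 fold change of the 4, Il1rl1, Enpp3, Gata2 and Ltc4s, was 0.48 with 6 libraries and 0.26 without control replicate 1. Over all genes tested it was -0.03 and -0.003. Ltc4s, with 12, 26 and 12 counts with A20 overexpression and 4, 8 and 10 in control, passed the filter through its A20-overexpressing libraries. Kit, Hdc and Gata1 did not pass it, so this median does not describe the whole list. Markers of other leukocytes were scarce as well: Ptprc and Adgre1 had no count, and the 4 defining genes together had 0 to 14 counts with A20 overexpression and 4 to 21 counts in control. The macrophage-associated gene Cd68 was the most abundant of the 12 leukocyte markers per length, at 19.3 to 38.7 CPM with A20 overexpression and 3.71 to 30.6 CPM in control. Of the 3 tested edgeR and DESeq2 called 0 in either fit, where edgeR called 0.015% and 4.6% of all genes tested. In edgeR 0 of the 3 had an unadjusted p under 0.05, against 10% and 21.6%. With 3 genes these counts say little about the markers.

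**Figure D4:**
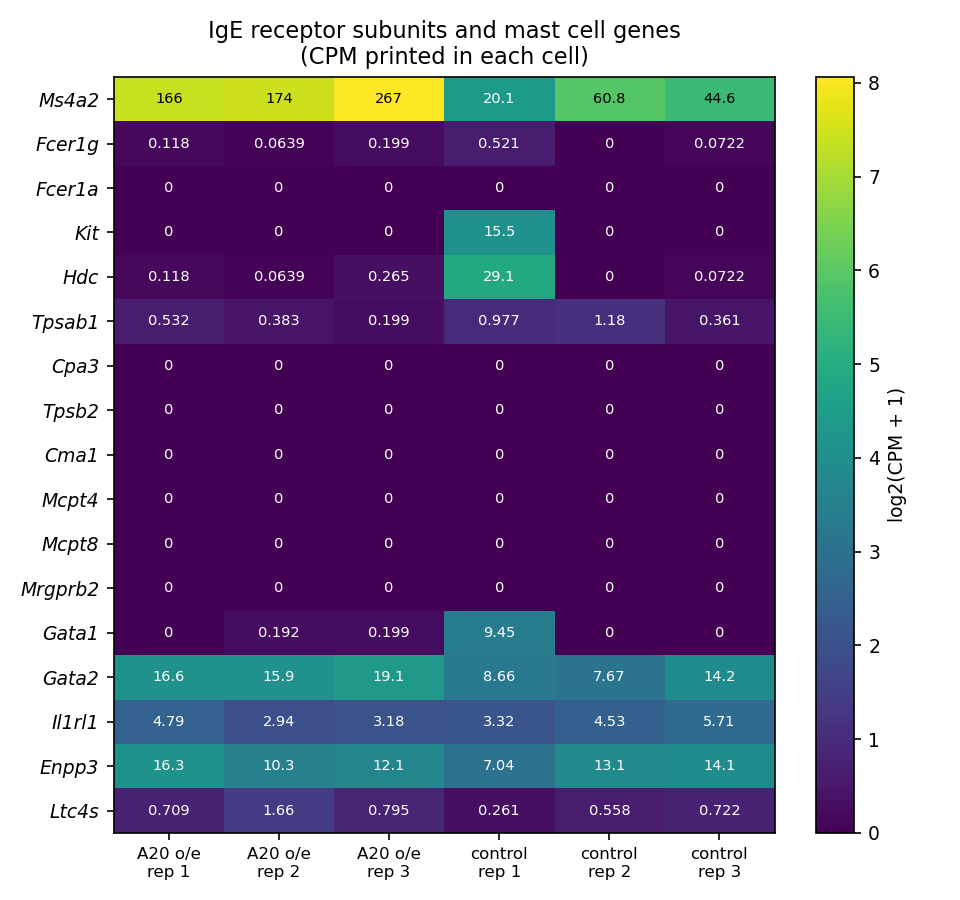
CPM, printed in each cell, of the 3 receptor subunit genes and 14 mast cell genes in the 6 libraries, coloured by log2(CPM + 1), with A20 overexpression left of control. Ms4a2 is at 20.1 to 267 CPM while Cpa3, Tpsb2, Cma1, Mcpt4, Mcpt8 and Mrgprb2 are at 0 throughout, and Kit, Hdc and Gata1 stand out in control replicate 1.

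Transcription factors named for mast cells or for gonadal stroma were also examined, because the letters marked in the Ms4a2 promoter are a motif of GATA factors. Binding there was not tested. All 12 had counts and 9 were tested. Gata2, which acts in mast cell progenitors, stood at 16.6, 15.9 and 19.1 CPM with A20 overexpression and at 8.66, 7.67 and 14.2 CPM in control, without overlap (log2 fold change 0.78 ± 0.29 SE, edgeR adjusted p = 0.447 with 6 libraries, and 0.62 ± 0.24 SE, edgeR adjusted p = 0.146 without control replicate 1). The gonadal factor gene Gata4 stood at 20.8 to 24.2 CPM with A20 overexpression and at 123, 12.5 and 21.2 CPM in control replicates 1, 2 and 3, and Gata6 averaged 57.4 CPM ± 1.24 with A20 overexpression and 57.6 CPM ± 11.2 in control (SD, n = 3 each). Mitf, a mast cell and melanocyte factor gene, was at most 0.530 CPM with A20 overexpression and at most 0.558 CPM in control replicates 2 and 3, with 7.62 CPM in control replicate 1.

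Zfpm1, which encodes the GATA cofactor FOG-1, was the most abundant of these factors per length and the one of 9 that passed edgeR's test without control replicate 1, where 4.6% of all genes tested passed and 1.92% were higher. It stood at 71.0, 76.0 and 77.7 CPM with A20 overexpression and at 48.5, 38.4 and 56.8 CPM in control replicates 1, 2 and 3, so that the groups did not overlap. Without control replicate 1 it rose 1.54-fold (log2 fold change 0.63 ± 0.16 SE, edgeR adjusted p = 0.0353). DESeq2 called it too, and limma on log2(FPKM + 1) and log2(FPKM + 0.1) did not (limma adjusted p = 0.0916 and 0.0954). With all 6 libraries it did not pass (0.68 ± 0.17 SE, edgeR adjusted p = 0.274), and leaving out any A20-overexpressing library or control replicate 2 from the 5 gave edgeR adjusted p = 0.102 to 0.153. The groups did not overlap for 4 of the 9 factors tested (44.4%, against 16.9% of all genes tested), with Gata2, Mzf1 and Zfpm1 higher and Pou2f1 lower, and an unadjusted p under 0.05 was found for 2 with 6 libraries, against 10% of all genes tested, and 3 without control replicate 1, against 21.6%. The median log2 fold change of the 9 was 0.17 with 6 libraries and 0.22 without control replicate 1, beside -0.03 and -0.003 over all genes tested. A part of these factors in the level of Ms4a2 was not tested.

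The genes whose levels followed Ms4a2 most closely over the 6 libraries were ranked by the Pearson r of log2(CPM + 1) among 9781 protein-coding genes averaging 5 CPM or more. They were Gm8332 (r = 0.998), Selenon (r = 0.996), Acsl5 (r = 0.987), Ikzf2 (r = 0.986) and Itpr2 (r = 0.984). Of all genes compared, 188 had r above 0.9, and each r rests on 6 libraries that differ by group and by the library that stood apart, so the values are a description only. Gm8332, listed as protein-coding and described in the table as a predicted pseudogene, is uncertain because reads of a near-identical copy could be counted there, and it stood at 17.1, 16.2 and 24.3 CPM with A20 overexpression and 3.91, 8.43 and 7.08 CPM in control. Selenon, the selenoprotein N gene, stood at 88.8, 86.3 and 95.5 CPM with A20 overexpression and 53.9, 69.1 and 66.8 CPM in control. Both repeat the order of Ms4a2 among the control libraries and its peak in A20-overexpressing replicate 3, over a smaller range. The most opposite patterns were those of Neurl1b (r = -0.992), Prkag1 (r = -0.989), Plekha2 (r = -0.989), Pnn (r = -0.988) and Spaca6 (r = -0.988). Neurl1b, a ubiquitin ligase gene, stood at 13.2, 12.1 and 9.47 CPM with A20 overexpression and 18.5 to 33.6 CPM in control, where replicate 1, the lowest for Ms4a2, was the highest.

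**Figure D5:**
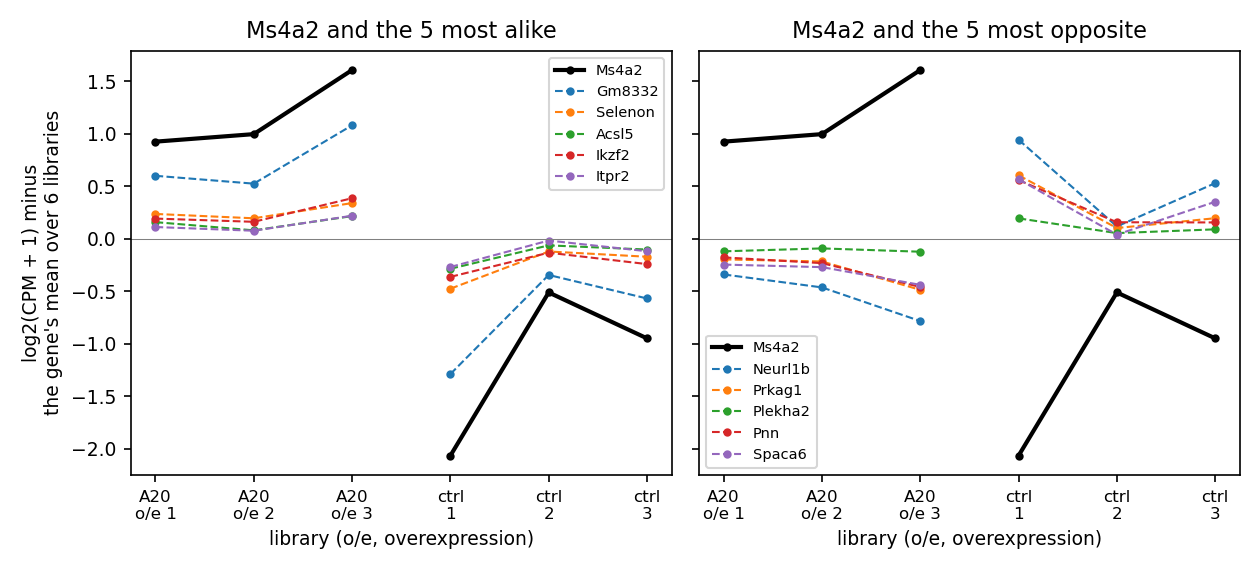
log2(CPM + 1) minus the gene's own mean over the 6 libraries, for Ms4a2 (thick black line) with the 5 genes most alike (left) and most opposite (right); lines join libraries of a group as a guide only. The alike genes follow Ms4a2 with smaller amplitude, with r of 0.984 to 0.998.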

How the data were processed

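RNA sequencing of 6 TM3 libraries was used, 3 with A20 overexpression and 3 controls. Per the labels' protocols, total RNA from a Qiagen RNeasy kit entered SMARTER mRNA-Seq library preparation. The authors deposited whole-number counts per gene and FPKM values per gene. Per the submitters' processing notes the build was GRCm38 (mm10); aligner, read counting and strandedness are not given in the sources used here. The deposited FPKM equalled the count divided by gene length and by 1 library size per library, tested on genes with over 50 counts.

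CPM were computed from the deposited counts and each library's total. Across all genes kept by the default filter, edgeR 4.0.16 (R 4.3.3) was run with TMM, robust quasi-likelihood F tests and Benjamini-Hochberg adjustment at 0.05, with the group alone in the design, and was tested on simulated data. Fold changes are A20 overexpression over control, and a standard error is the log2 fold change divided by the root of F. Alternatives were RLE, upper-quartile and no factors, 2 other filters on low counts, DESeq2 1.42.0, limma 3.58.1 on log2(FPKM + 1) and log2(FPKM + 0.1), a replicate block and leaving out each library. The members, gene lists and the choice to show fits without control replicate 1 were made with earlier results of these data known.

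Named were the members; per list, up to 6 genes past the threshold in either fit and the gene with the highest mean FPKM; the nearest tested neighbours of Ms4a2; and the 5 genes most and least like it. Other genes were named after their values were seen, and some genes are not reported here. Positions are those of the table, and exons are from GENCODE M21.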

Additional observations from a re-analysis of the deposited data

How the results depend on the processing

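The log2 fold change of Ms4a2 was positive under every alternative run and moved by less than the spread between replicates. With 6 libraries it ranged from 1.90 to 2.70 when 1 library was left out, and without control replicate 1 from 1.66 to 2.19. Fcer1a stayed at 0, and the mean of Fcer1g over the libraries was 0.162 CPM, and 0.0906 CPM without control replicate 1. The number of genes called over the whole table with 6 libraries, 2 in edgeR, was 183 with DESeq2, 23 without a filter on low counts and 0 with upper-quartile factors, with library size alone and with limma on either FPKM scale, and lay between 0 and 628 when 1 library was left out, with 628 called without control replicate 1 and 0 when any other single library was left out. Without control replicate 1, 628 were called, against 1173 without a filter, 235 with limma on log2(FPKM + 1) and 177 on log2(FPKM + 0.1), and between 142 (without A20-overexpressing replicate 1) and 2423 (without control replicate 3) when a further library was left out; leaving out control replicate 2 or 3 there leaves 1 control, assumed to vary like the other group. The number of receptor signalling genes called stayed at 0 in all alternatives but 1, that without control replicates 1 and 3, where Orai1 made it 1 (range 0 to 1). The causes of these changes were not tested.

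Replicate numbers are shared between the groups. The deviations of same-numbered libraries from their group means had r across genes of 0.0476, 0.126 and -0.0547 for replicates 1, 2 and 3. For differently numbered libraries r lay between -0.196 and 0.176. With 3 libraries per group, of which control replicate 1 stood apart, these values cannot decide whether same-numbered libraries were paired. With the replicate block the log2 fold change of Ms4a2 was 2.41 with 6 libraries and 2.02 without control replicate 1, the genes called numbered 2 and 797, and the signalling genes called 0 and 0. Depth limits Fcer1g, Ms4a3, Ms4a6d and Oosp1 among others, since each rests on at most 50 counts in any library. The block also brought Oosp1 past the threshold without control replicate 1 (edgeR adjusted p = 0.0371).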
